A study of Mus musculus with 15 samples.

Results

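RNA sequencing compared Ly6Chigh CD11c+ MHC-II+ cells with the Ly6Clow cells of Mock-LLC tumours. The comparison rests on 8 libraries, 4 of each population, which were taken by their labels from the 15 libraries of the study. LLC is the Lewis lung carcinoma line of the mouse. The tumours compared here grew from LLC cells labelled Mock-LLC, and the other libraries came from tumours of LLC cells carrying SULT2B1b, a sulfotransferase of cholesterol and oxysterols. All tumours had been established for 10 days when myeloid cells were sorted from them by flow cytometry. Libraries with the same number came from the same tumour, so each of the 4 Mock-LLC tumours gave 1 Ly6Chigh and 1 Ly6Clow library. The labels do not define Mock further, give no strain, sex or age of the mice, and do not say that each tumour came from its own mouse, so a p-value here covers the spread between libraries, which may be technical. The Ly6Chigh gate also asked for CD11c and MHC class II, whereas the labels give no such condition for the Ly6Clow gate.

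Ly6C marks monocytes that have recently left the blood. In inflamed tissue and in tumours these cells lose Ly6C as they turn into macrophages, and some take on the surface markers of dendritic cells, CD11c and MHC class II. Monocytes answer interferons with a large set of antiviral and antigen presentation genes, whereas tissue macrophages make complement C1q, scavenger receptors and lysosomal enzymes. Other myeloid cells low in Ly6C, such as eosinophils and tissue macrophages, can fall into a Ly6Clow gate.

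The populations differed in depth and in how well replicates agreed. Ly6Clow libraries held 19792494 to 39284008 counts and Ly6Chigh libraries 7763032 to 10626954, so a floor of 3 counts lay at 0.0777 to 0.153 and at 0.272 to 0.398 CPM, the unit of counts scaled to library size that is used throughout. The correlation of log2 CPM between replicates was 0.958 to 0.981 in Ly6Clow and 0.809 to 0.868 in Ly6Chigh cells. Over 8735 well-measured genes the median coefficient of variation was 12.3% in Ly6Clow and 31.4% in Ly6Chigh cells, and 13.3% and 31.5% after every library had been thinned to 7763032 counts. Of 8191 genes with a mean of at least 10 CPM in Ly6Clow cells, 301 (3.67%) had no count in 1 or more Ly6Chigh libraries. The reverse was true of 0 of 8021 genes. After thinning, these counts were 307 of 8181 (3.75%) and 2 of 8042, and 13123 to 17235 genes were detected in Ly6Chigh against 16433 to 18582 in Ly6Clow libraries.

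Of 13800 genes tested, 1160 (8.41%) passed an adjusted p of 0.05 in edgeR's quasi-likelihood test with Benjamini-Hochberg adjustment. In Ly6Chigh cells 490 of them (3.55%) were higher and 670 (4.86%) lower, with median folds of 2.18 and 1.99. The CPM values of the populations did not overlap for 892 genes that were higher (6.46%) and 2185 that were lower in Ly6Chigh cells (15.8%). Of the calls 81 were more than 4-fold higher and 163 more than 4-fold lower. With every library thinned to 1 total, 1053 genes were called, 565 higher and 488 lower, of which 94 and 141 were past 4-fold. Of the genes called lower, 76 had no count in any Ly6Chigh library, whereas 0 of those called higher were without a count in all Ly6Clow libraries. The balance of directions depended on the scaling: 42.2% of calls were higher with TMM factors and 59.0% with median-ratio factors (619 higher and 431 lower), and the median log2 fold change of all genes moved from -0.08 to 0.05. The count also depended on single Ly6Clow libraries, as 701, 584, 685 and 643 genes were called without the library of tumour 1, 2, 3 and 4, and without the Ly6Chigh library of tumour 3 the genes called lower fell to 380. With only the 8 Mock-LLC libraries and the tumour as a block, 424 genes were called, 279 higher and 145 lower.

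**Figure D1:**
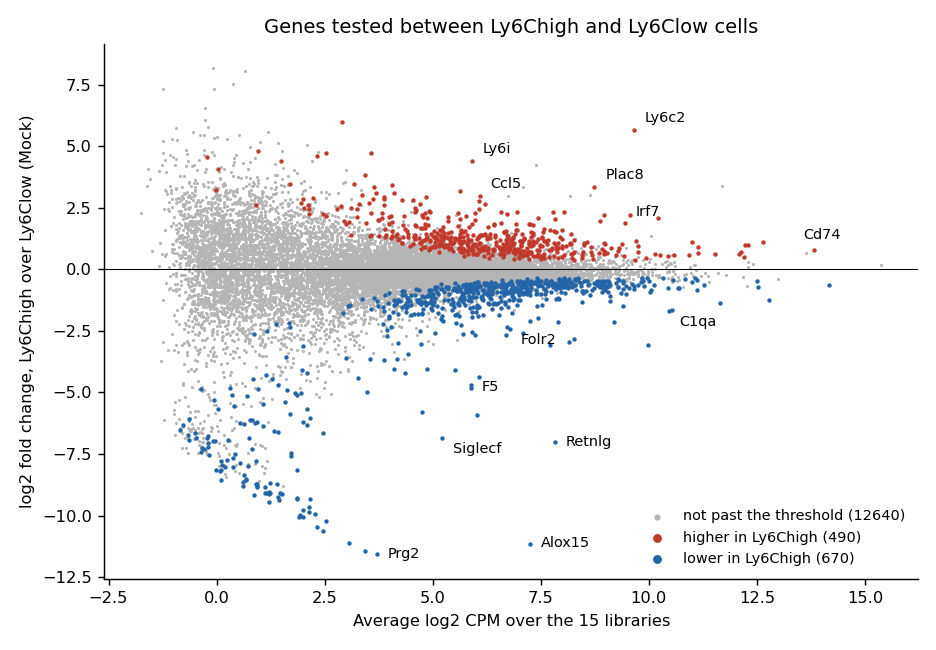
Each point is 1 of the 13800 genes tested, with its average log2 CPM over the 15 libraries on the x axis and its fitted log2 fold change, Ly6Chigh over Ly6Clow cells of Mock-LLC tumours, on the y axis. The 490 genes called higher (red) include Ly6c2, and the 670 called lower (blue) include Prg2, which had no count in Ly6Chigh cells, and Alox15.

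The genes of the sort followed the gate in part. Ly6c2 (chromosome 15, 75108158 to 75111970), which encodes Ly6C, measured 1571, 1801, 971 and 1184 CPM in Ly6Chigh cells of tumours 1 to 4 against 21.3, 19.2, 34.4 and 33.7 CPM in Ly6Clow cells. The populations were far apart for Ly6c2, which is a check of the sort and no finding; 9.46% of the 75-base windows of its transcripts also occur in Ly6c1. Itgax, which encodes CD11c, stood at 225, 112, 102 and 136 CPM in Ly6Chigh against 99.6, 114, 99.0 and 87.7 CPM in Ly6Clow cells. These ranges overlapped and Itgax did not pass (adjusted p = 0.257). Itgam, the CD11b chain, was 1164 to 1606 CPM in Ly6Chigh and 2251 to 2549 CPM in Ly6Clow cells and was called lower (1.71-fold, adjusted p = 0.00701), although 65.2% of its windows are shared with the overlapping gene model Gm49368.

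Other genes of the Ly6 family, which lie together on chromosome 15 and encode small surface proteins held by a lipid anchor, moved with Ly6c2. Of 6 members tested 5 were called higher (83.3%, against 3.55% of all genes) and 0 lower. All 5 were called in each of the 8 fits that left out 1 Mock-LLC library. Ly6i stood at 79.7, 50.3, 85.8 and 64.8 CPM in Ly6Chigh against 3.68, 2.56, 3.16 and 3.76 CPM in Ly6Clow cells, a fold of 21.3 (log2 4.41 ± 0.231 SE, adjusted p = 2.05e-08). Ly6a, known as Sca-1 and induced by interferon, was at 253 to 413 CPM against 65.8 to 113 CPM (3.95-fold), and Ly6e at 2157 to 2621 CPM against 994 to 1158 CPM (2.17-fold). For these 3 genes every Ly6Chigh library lay above every Ly6Clow library. The list holds the gene of the sort itself.

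Classical monocyte genes were higher in Ly6Chigh cells, but not as a block. Of 12 markers 6 were called higher and 1 lower, with a median log2 fold change of 0.86 against -0.08 over all genes. Plac8 (chromosome 5, 100553725 to 100572245), a small cysteine-rich protein of monocytes, stood at 775, 792, 638 and 767 CPM in Ly6Chigh against 60, 71.2, 75.2 and 82.5 CPM in Ly6Clow cells, with no overlap (10.3-fold, adjusted p = 2.18e-09). Ms4a4c was at 576 to 814 CPM against 128 to 163 CPM (4.67-fold), and Ifitm6 at 109 to 180 CPM against 49.8 to 60.6 CPM (2.47-fold). Vcan, the matrix proteoglycan versican, was 2.17-fold and the haptoglobin gene Hp 2.8-fold higher. Ccr2, the receptor that draws monocytes out of the marrow and into tissue, was abundant in both populations, at 2860, 2590, 1975 and 2108 CPM in Ly6Chigh and 1864, 1460, 1511 and 1554 CPM in Ly6Clow cells (1.49-fold, adjusted p = 0.0137). Cd14 overlapped, at 1176 to 1512 CPM against 1482 to 1998 CPM (adjusted p = 0.592). Lysozyme, Lyz2, was the member called lower, at 13064 to 17250 CPM against 22513 to 24801 CPM (adjusted p = 0.0221), but its call was lost in all 8 fits that left out 1 library, with adjusted p up to 0.119 without the Ly6Chigh library of tumour 4. Because of it the summed level of the list was lower in Ly6Chigh cells, at 19031 to 24286 CPM against 27229 to 30280 CPM.

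Markers of patrolling monocytes, the Ly6Clow cells that crawl along vessel walls, did not follow the Ly6Clow gate. Of 11 markers 3 were called higher in Ly6Chigh cells (27.3%) and 2 lower (18.2%), against 3.55% and 4.86% of all genes. Ace, the angiotensin-converting enzyme, stood at 18.1 to 41.1 CPM in Ly6Chigh and 3.68 to 9.55 CPM in Ly6Clow cells (4.21-fold, adjusted p = 0.00842), and the Fc receptor gene Fcgr4 at 156 to 253 CPM against 92.6 to 116 CPM (2.12-fold). Cx3cr1, the fractalkine receptor, lay at 419 to 598 CPM against 461 to 523 CPM and Nr4a1, the factor these cells need, at 354 to 911 CPM against 335 to 636 CPM, and neither passed (adjusted p = 0.95 and 0.815). Pglyrp1, a peptidoglycan-binding protein, was the clearest marker that fell, at 0.453 to 3.98 CPM against 24.9 to 40.1 CPM, although neutrophils and eosinophils also make it.

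**Figure D2:**
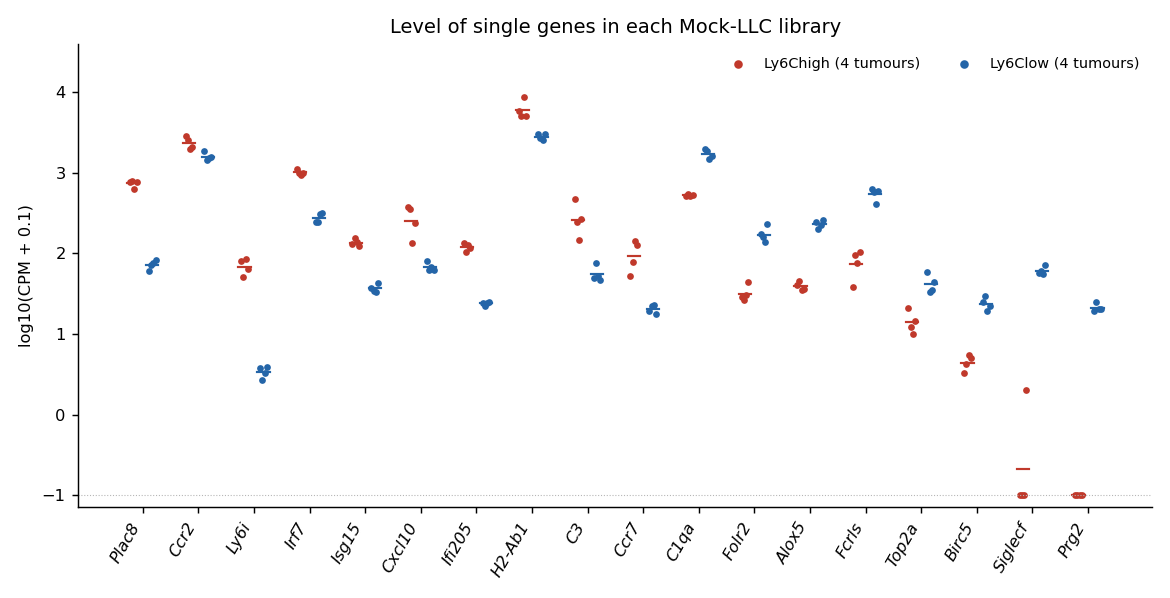
Level of 18 genes in each Mock-LLC library as log10(CPM + 0.1), with Ly6Chigh cells in red and Ly6Clow cells in blue, 4 tumours each, and a line at the mean of the transformed values. Only values at -1 are libraries with no count. The populations overlap for none of these genes; Plac8, Ly6i and the interferon genes lie higher, and C1qa, Alox5 and Prg2 lower, in Ly6Chigh cells.

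Interferon-stimulated genes were the most uniformly raised lists. All 27 members of the type I interferon list were called higher in Ly6Chigh cells, against 3.55% of all genes, with a median log2 fold change of 1.43. The populations did not overlap for 26 of them, whereas 6.46% of all genes lay higher without overlap. The calls of 24 held in each of the 8 fits that left out 1 Mock-LLC library, and 25 held with the tumour as a block, where Ifi35 and Ddx58 did not (adjusted p = 0.104 and 0.053). Ifi35 also lost its call without the Ly6Chigh library of tumour 2 or the Ly6Clow library of tumour 2 or 3, with adjusted p up to 0.0886. Of the interferon-gamma list 23 of 24 tested members were called higher and 0 lower, with a median of 1.44. Of these 21 held in each of the 8 fits and 20 with the tumour as a block; Socs1 was the member that did not pass (10.4 to 47.6 against 8.95 to 20 CPM). The list of PYHIN genes, a cluster on chromosome 1 whose products bind DNA in the nucleus and cytosol, had 9 of 12 members called higher and 0 lower, and all 9 held in each of those 8 fits.

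Irf7 (chromosome 7, 141262706 to 141266481), the transcription factor that amplifies the type I interferon response, stood at 1127, 993, 953 and 992 CPM in Ly6Chigh against 246, 247, 306 and 318 CPM in Ly6Clow cells (3.64-fold, log2 1.86 ± 0.143 SE, adjusted p = 1.59e-06). Isg15, a ubiquitin-like modifier, stood at 130, 155, 138 and 123 CPM against 37.0, 34.4, 33.3 and 43.1 CPM (3.69-fold), and the antiviral enzyme gene Rsad2 at 235 to 351 CPM against 58.9 to 76.2 CPM (4.24-fold). All 4 tumours showed the same direction with no overlap for these 3 genes. The RNA-binding proteins Ifit2 and Ifit3 were 5.02- and 4.95-fold higher, although 41.1% of the 75-base windows of Ifit3 are shared with Ifit3b. The sensor of double-stranded RNA Ifih1 was 2.31-fold and the signalling factor Stat2 2.39-fold higher. Among genes that interferon-gamma induces most, the guanylate-binding protein genes Gbp4 and Gbp5 stood at 37.3 to 84.2 CPM against 3.94 to 12.8 CPM (6.77-fold) and at 13.3 to 44.0 CPM against 2.91 to 6.01 CPM (6.38-fold). Irf1, which carries the interferon-gamma signal to many of them, was 2.21-fold higher, at 124 to 266 CPM against 64.6 to 91.5 CPM. In the PYHIN cluster Ifi205 stood at 134, 105, 126 and 118 CPM against 24.5, 22.5, 24.4 and 25 CPM (5.01-fold), with 16.6% of its windows shared with Ifi211, and Ifi213 at 93.3 to 134 CPM against 13.9 to 20.4 CPM (6.37-fold).

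Promoters were read for the element that type I interferon signalling uses. The interferon-stimulated response element binds the factor complex that type I interferon activates, and was searched as GAAA, any 2 bases and GAAA again on both strands from 250 bases before to 50 after the start of each gene; matches can overlap. Among tested genes with a promoter sequence it was found in 390 of 9598 (4.06%), close to the 3.99% over all promoters of the same length. It occurred in 62 of 348 genes called higher (17.8%) and in 23 of 518 called lower (4.44%). It was found in 10 of 19 type I interferon, 11 of 15 interferon-gamma and 9 of 12 PYHIN promoters, and in 0 of 9 classical monocyte, 0 of 9 eosinophil and 0 of 13 macrophage promoters. A match describes these letters and not binding. The 250 bases before the start of 4 members that were 2.39- to 4.95-fold higher are shown 5′ to 3′ from RefSeq on GRCm38.p6, with matches of the element on either strand in capitals:
Ifit3 promoter, chr19:34583279-34583528, plus strand: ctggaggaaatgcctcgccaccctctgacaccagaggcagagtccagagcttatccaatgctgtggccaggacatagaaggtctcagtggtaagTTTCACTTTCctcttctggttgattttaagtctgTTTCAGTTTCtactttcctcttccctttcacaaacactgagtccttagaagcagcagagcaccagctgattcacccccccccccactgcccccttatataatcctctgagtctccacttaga
Rsad2 promoter, chr12:26456453-26456702, minus strand: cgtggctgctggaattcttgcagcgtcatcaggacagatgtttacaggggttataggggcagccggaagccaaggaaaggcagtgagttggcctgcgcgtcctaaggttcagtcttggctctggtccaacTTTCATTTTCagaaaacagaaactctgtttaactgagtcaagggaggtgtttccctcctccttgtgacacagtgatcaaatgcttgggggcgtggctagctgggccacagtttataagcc
Isg15 promoter, chr4:156200819-156201068, minus strand: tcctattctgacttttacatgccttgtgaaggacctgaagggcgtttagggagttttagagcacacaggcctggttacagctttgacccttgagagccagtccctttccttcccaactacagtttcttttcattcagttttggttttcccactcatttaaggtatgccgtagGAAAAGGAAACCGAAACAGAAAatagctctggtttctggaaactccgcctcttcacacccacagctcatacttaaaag
Stat2 promoter, chr10:128270248-128270497, plus strand: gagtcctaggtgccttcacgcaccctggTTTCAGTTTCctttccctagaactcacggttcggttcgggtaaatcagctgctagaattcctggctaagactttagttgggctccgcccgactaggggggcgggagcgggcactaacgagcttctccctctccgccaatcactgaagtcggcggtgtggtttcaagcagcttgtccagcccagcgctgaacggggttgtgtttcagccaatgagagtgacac
In Ifit3 the 2 matches begin 156 bases or fewer before the start, and Isg15 holds 3 overlapping matches from 78 bases before it. The single matches of Rsad2 and Stat2 begin 120 and 222 bases before the start.

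The gamma-activated site TTCNNNGAA, an element of interferon-gamma signalling, was found in 8.32% of tested promoters, in 10.9% of those called higher and in 8.11% of those called lower. It occurred in 7 of 15 interferon-gamma and 3 of 19 type I interferon promoters.

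Genes of antigen presentation were higher in Ly6Chigh cells, which had been gated on MHC class II, so the class II values describe the sort and are no finding. Of 12 class II genes 7 were called higher (58.3%, against 3.55% of all genes) and 0 lower (median log2 fold change 0.71). All 7 held in each of the 8 fits that left out 1 library. H2-Ab1 (chromosome 17, 34257689 to 34269419) stood at 5842, 5094, 8632 and 5027 CPM in Ly6Chigh against 3033, 2723, 2550 and 3028 CPM in Ly6Clow cells (2.17-fold, adjusted p = 0.0022). H2-Aa was 1.96-fold, H2-Eb1 1.54-fold and the invariant chain Cd74 1.74-fold higher. Class II RNA was abundant in Ly6Clow cells as well, and the summed level of the list was 27949 to 38668 CPM in Ly6Chigh and 18408 to 21859 CPM in Ly6Clow cells. Ciita, the factor that switches class II genes on, was 2.11-fold higher, but its libraries overlapped, at 299, 109, 238 and 242 CPM against 106, 93.7, 105 and 117 CPM. H2-DMb1, part of the complex that loads peptide onto class II, was at 434 to 531 CPM against 205 to 252 CPM, with 15.8% of its windows shared with H2-DMb2.

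Class I presentation, which was not part of the gate, had 8 of 17 members called higher and 0 lower (median 0.37). The share called higher was 47.1%, against 3.55% of all genes. Nlrc5, the class I counterpart of Ciita, stood at 199, 144, 210 and 224 CPM in Ly6Chigh against 74.6, 56.7, 74.0 and 65.0 CPM in Ly6Clow cells, with no overlap (2.87-fold, adjusted p = 9.84e-05). H2-K1 was 1.52-fold and B2m, the light chain of class I, 1.99-fold higher, the latter at 4307 to 7760 CPM against 2513 to 2914 CPM. The immunoproteasome genes Psmb8 and Psmb9 were 1.47- and 1.48-fold higher. The proteasome activator gene Psme2 was called as well but not with the tumour as a block (adjusted p = 0.0642).

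Dendritic cell genes gave a mixed picture. Of 14 maturation genes 2 were called higher (14.3%) and 0 lower, against 3.55% and 4.86% of all genes. A log2 fold change above 0 was found for 13 of 14, against 6308 of 13800 genes tested, and the median was 0.82. Ccr7 (chromosome 11, 99144196 to 99155077), the receptor that guides dendritic cells to lymph nodes, stood at 53.1, 79.2, 141 and 127 CPM in Ly6Chigh against 19.0, 21.9, 23.1 and 17.6 CPM in Ly6Clow cells (4.91-fold, adjusted p = 0.00442). Cd86, a costimulatory ligand of T cells, was at 166 to 239 CPM against 86.1 to 112 CPM (2.09-fold). Its relative Cd80 did not overlap, at 44.5 to 57.8 CPM against 21.4 to 32.9 CPM, but did not pass (adjusted p = 0.0728). In the list of conventional dendritic cells 2 and monocyte-derived dendritic cells 3 of 13 genes were called higher (23.1%) and 1 lower (7.69%). Cd209a, a lectin of monocyte-derived dendritic cells, stood at 191, 135, 193 and 160 CPM against 77.8, 80.3, 73.9 and 81.2 CPM (2.17-fold), and Dpp4 was 3.54-fold and Kmo, an enzyme of tryptophan breakdown, 2.47-fold higher. Defining genes of conventional dendritic cells were low and overlapped: Zbtb46 lay at 6.37 to 35.9 CPM against 9.14 to 12.9 CPM, Flt3 at 0.398 to 47.0 CPM against 10.2 to 14.5 CPM, and Xcr1 at 0 to 7.97 CPM against 1.58 to 2.02 CPM. Of the conventional dendritic cell 1 list 0 genes were called higher and 2 lower, Cd24a (4.3-fold) and Irf8 (1.3-fold). The call of Irf8 was lost in all 8 fits that left out 1 library (adjusted p up to 0.272).

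Macrophage genes were lower in Ly6Chigh cells. Of 18 tested members 8 were called lower (44.4%) and 1 higher (5.56%), against 4.86% and 3.55% of all genes. A log2 fold change below 0 was found for 17 of 18, against 7491 of 13800 genes tested, and the median was -0.98. In bulk samples fewer cells of a type and less RNA per cell cannot be told apart. C1qa (chromosome 4, 136895917 to 136898803), a chain of the first component of complement, stood at 519, 553, 518 and 536 CPM in Ly6Chigh against 1981, 1884, 1467 and 1609 CPM in Ly6Clow cells (3.26-fold lower, adjusted p = 1.99e-07). The other chains C1qb and C1qc were 2.55- and 3.12-fold lower and the lipid receptor gene Trem2 2.49-fold lower, at 173 to 215 CPM against 460 to 551 CPM. Folr2, a folate receptor of tissue macrophages, stood at 28.9, 26.0, 30.3 and 44.0 CPM against 172, 158, 137 and 231 CPM (5.39-fold lower). These genes were separated in all 4 tumours and none was absent from Ly6Chigh cells. Mrc1, the mannose receptor, was 2.03-fold lower, but not without the Ly6Clow library of tumour 2 (adjusted p = 0.0551). Not all macrophage genes differed beyond their spread. Csf1r lay at 2011 to 2721 CPM against 2494 to 2603 CPM (adjusted p = 0.396). Cd68 lay at 699 to 1018 CPM against 829 to 905 CPM (adjusted p = 0.613). Adgre1 was called lower (adjusted p = 0.000285) and held in each of the 8 fits that left out 1 library. The member called higher was the Fc receptor gene Fcgr1, at 819, 798, 733 and 742 CPM against 428, 372, 446 and 448 CPM (1.83-fold, adjusted p = 3.38e-05), which interferon-gamma is also known to induce.

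Complement outside C1q split by protein. Of 19 members 2 were called higher (10.5%) and 7 lower (36.8%), against 3.55% and 4.86% of all genes. C3, the central component, stood at 469, 247, 145 and 270 CPM in Ly6Chigh against 50.2, 75.1, 52.1 and 46.2 CPM in Ly6Clow cells (5.06-fold higher, adjusted p = 0.000174), while C4b was 3.53-fold lower with 22.7% of its windows shared with C4a. Cd59a, which shields cells from the terminal complex, had no count in any Ly6Chigh library and 3.29 to 7.28 CPM in Ly6Clow cells, at least 61.0-fold lower against a floor of 3 counts over the group (adjusted p = 0.014, or 0.0833 with the tumour as a block). Fc receptors split in the same way, with 2 of 8 called higher and 3 lower. Fcrls, a receptor-like gene typical of microglia, fell from 407 to 631 CPM in Ly6Clow cells to 37.8 to 103 CPM (7.06-fold), and Fcgrt, the neonatal Fc receptor that recycles antibody, was 3.92-fold lower.

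Of 22 genes for the uptake of dying cells 7 were called lower in Ly6Chigh cells (31.8%) and 2 higher (9.09%). In each of the 8 fits that left out 1 library 5 of these 9 calls held. Over all genes the shares were 4.86% lower and 3.55% higher. The bridging proteins that mark dying cells for the receptor Mertk were called lower, while Mertk itself overlapped, at 15.3 to 60.7 CPM against 49.0 to 72.7 CPM (adjusted p = 0.529). Gas6 stood at 2.83, 0, 0 and 21 CPM in Ly6Chigh against 112, 132, 82.5 and 186 CPM in Ly6Clow cells (log2 fold change -4.39, adjusted p = 0.014). Its level in Ly6Chigh cells came mostly from tumour 4, and without that library the log2 fold change was -6.98. Pros1, the other ligand of that receptor family, was at 19.4 to 34.0 CPM against 57.8 to 80.9 CPM (2.95-fold lower). Havcr2, which encodes TIM-3 and binds exposed phosphatidylserine, went the other way, at 147 to 235 CPM against 86.9 to 112 CPM (1.92-fold higher).

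Eosinophil genes had the lowest median log2 fold change of the 52 lists. With the 4 tested members that had no count in Ly6Chigh cells set at a floor of 3 counts over the group, that median was -6.86. Of 9 tested markers 7 were called lower in Ly6Chigh cells (77.8%, against 4.86% of all genes) and 0 higher. No count in any Ly6Chigh library was found for 7 of the 12 in the table: Il5ra, Prg2, Prg3, Epx, Ear1, Ear6 and Gata1. The summed level of the list was 10.4 to 57.4 CPM in Ly6Chigh and 464 to 613 CPM in Ly6Clow cells. Siglecf (chromosome 7, 43351341 to 43359531), a sialic acid receptor of eosinophils, stood at 0, 0, 0 and 1.90 CPM in Ly6Chigh against 57.6, 60.5, 55.1 and 72.8 CPM in Ly6Clow cells (log2 fold change -6.86, adjusted p = 0.000512). The 1 library with a count decided the size of that estimate, which was -13.15 without it. Il5ra, the receptor for the eosinophil growth factor, and the granule protein gene Prg2 were at 12.6 to 18.5 and 19.0 to 24.6 CPM in Ly6Clow cells, at least 192- and 267-fold above a floor of 3 counts over the Ly6Chigh group. Ccr3, the eotaxin receptor, was at 0 to 11.2 CPM against 94.5 to 125 CPM, with a log2 fold change of -4.68, or -5.77 without the Ly6Chigh library of tumour 1. Gata1, the factor that eosinophils need, had no count in Ly6Chigh and 7.44 to 19.4 CPM in Ly6Clow cells. The granule genes Epx, Prg3 and Ear1 stood at no more than 0.508 CPM in any Ly6Clow library. Cd24a, a surface protein that eosinophils share with dendritic cells and neutrophils, was 4.3-fold lower in Ly6Chigh cells.

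Markers of other cells were checked beside these. The neutrophil list summed to 243 to 356 CPM in Ly6Chigh and 912 to 1206 CPM in Ly6Clow cells. It had 3 of 11 tested members called in each direction (27.3% each, against 3.55% higher and 4.86% lower over all genes). Its gap came mainly from Retnlg, a resistin-like gene, at 3.82, 0, 1.47 and 8.78 CPM against 462, 347, 437 and 637 CPM (log2 fold change -7.01, or -7.94 without the Ly6Chigh library of tumour 4; adjusted p = 0.00013), whereas the granule gene S100a8 did not exceed 4.29 CPM in any library and Camp, Elane and Mpo were at 0 in all Ly6Chigh libraries. T cell markers summed to at most 11.2 CPM in any library. Natural killer markers summed to 69.1 to 98.3 CPM against 18 to 21.3 CPM, nearly all from Klrk1, the NKG2D receptor gene, at 69.1 to 94.7 CPM against 17.4 to 20.4 CPM; Ncr1, Gzma, Gzmb, Prf1 and Eomes had no count in Ly6Chigh cells. B cell markers summed to 57.5 to 63.8 CPM against 18.9 to 45.8 CPM, mostly from Ighm at 39.3 to 54.8 CPM against 13.8 to 39.1 CPM, with Pax5 at 0 in every library. Markers of mast cells and basophils summed to 3.23 to 17.5 CPM against 10.8 to 17.2 CPM, with 0 of 6 called. Endothelial markers summed to 52.5 to 107 CPM against 25.2 to 44.0 CPM, where Flt1, a VEGF receptor that monocytes also carry, was higher by a log2 fold change of 2.32, or 3.05 without the Ly6Clow library of tumour 2. Fibroblast markers summed to 132 to 728 CPM against 146 to 325 CPM and epithelial markers to 39.5 to 83.3 CPM against 92.4 to 145 CPM. Most of the epithelial sum was Cdh1, at 31.5 to 83.3 CPM against 86.4 to 143 CPM, while Krt8 did not exceed 0.815 CPM in any Mock-LLC library. The part of any of these cells in the differences described here was not tested.

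**Figure D3:**
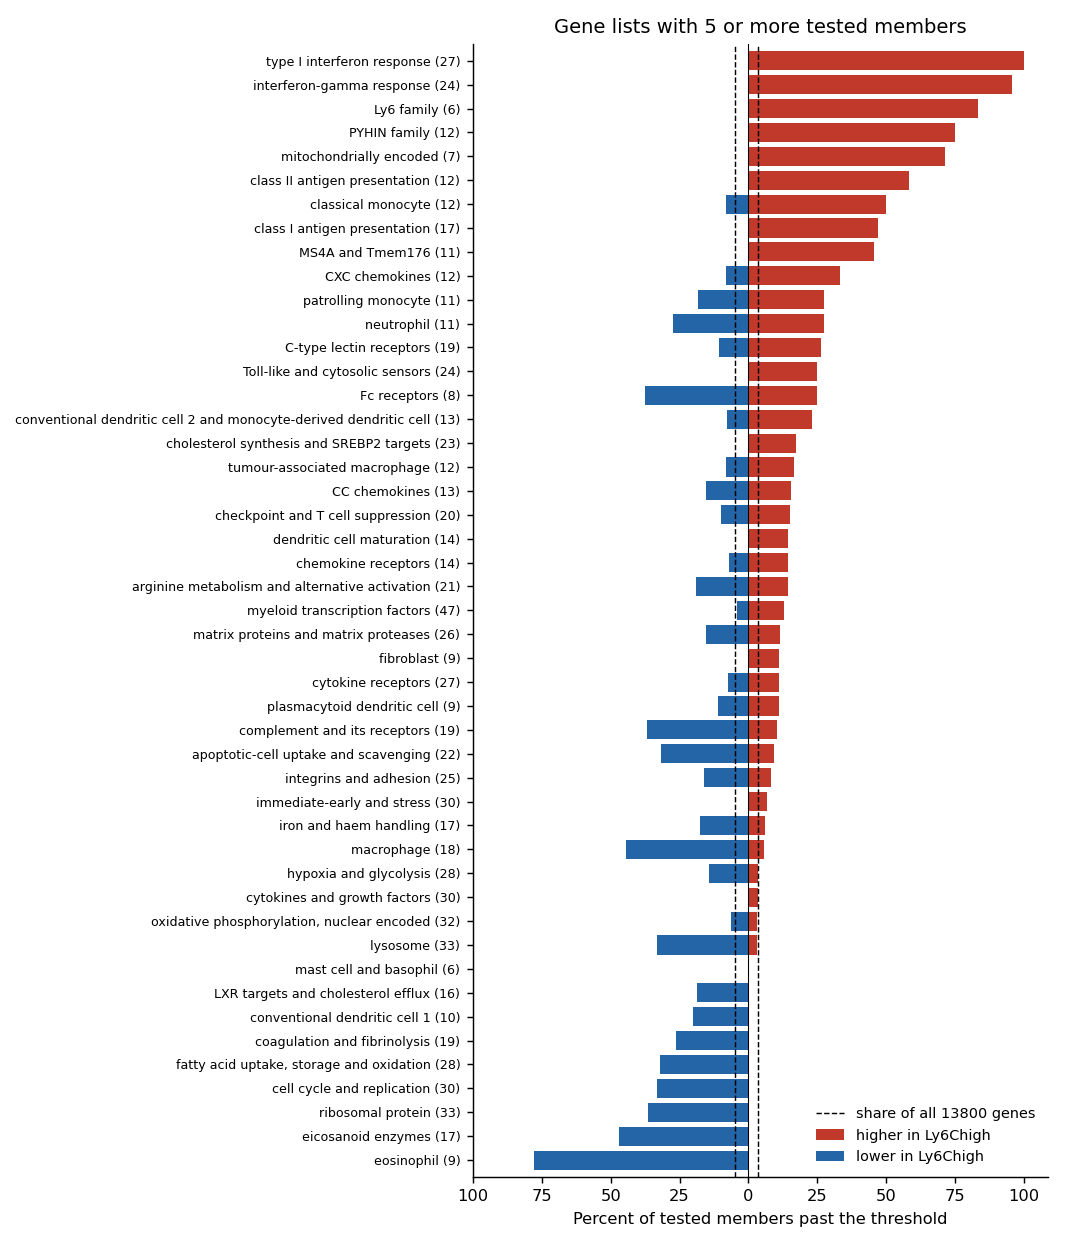
Percent of the tested members of each gene list called higher (red, to the right) or lower (blue, to the left) in Ly6Chigh cells, with the number tested in brackets. Dashed lines mark the shares of all 13800 genes, 3.55% and 4.86%; the interferon lists lie at the top and the eosinophil and eicosanoid lists at the bottom.

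Of 12 CXC chemokines 4 were called higher in Ly6Chigh cells (33.3%) and 1 lower (8.33%), against 3.55% and 4.86% of all genes. With the tumour as a block 4 of these 5 calls also held. Cxcl11 did not (adjusted p = 0.1) and was lost in 3 of the 8 fits that left out 1 library, those without the Ly6Clow library of tumour 1, 2 or 4. Cxcl9 and Cxcl10, ligands of the T cell receptor CXCR3, stood at 26.8 to 57.8 CPM against 11.6 to 19.7 CPM (2.99-fold) and at 377, 355, 134 and 236 CPM against 79.6, 62.0, 67.4 and 61.5 CPM (4.07-fold). Cxcl14 was the member called lower, at 25.3 to 33.4 CPM against 107 to 112 CPM (3.61-fold). Ccl5, another T cell attractant, stood at 90.9, 104, 144 and 128 CPM against 13.5, 11.3, 17.5 and 16.7 CPM (7.93-fold, adjusted p = 2.63e-06). Of 13 CC chemokines 2 were called in each direction (15.4% each). The 14 chemokine receptors had Ccr7 and Ccr2 called higher (14.3%) and Ccr3 lower (7.14%, near the 4.86% of all genes).

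The summed level of the cytokine and growth factor list was 1731 to 3040 CPM in Ly6Chigh and 933 to 1591 CPM in Ly6Clow cells, but few members passed. Of 30 tested 1 was called higher (3.33%, against 3.55% of all genes) and 0 lower. The gene called was the angiogenic factor gene Vegfa, at 22.8 to 38.2 CPM against 9.43 to 13.1 CPM (2.62-fold). Il1b stood at 1954, 1756, 758 and 1001 CPM in Ly6Chigh against 872, 659, 318 and 307 CPM in Ly6Clow cells of tumours 1 to 4. It was higher in the Ly6Chigh library of every tumour, but its ranges overlapped and it did not pass (adjusted p = 0.0989). Tnf was at 56.0, 28.8, 203 and 264 CPM against 55.4, 27.7, 85.0 and 50.9 CPM (adjusted p = 0.18). Among pattern sensors 6 of 24 were called higher and 0 lower, among them the cytosolic RNA sensor genes Ddx58, Ifih1 and Dhx58, which interferon induces. The flagellin receptor gene Tlr5 was 4.21-fold higher, but not without the Ly6Clow library of tumour 2 (adjusted p = 0.0505).

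The MS4A family of membrane proteins, several of which mark monocytes and macrophages, had 5 of 11 members called higher and 0 lower. Ms4a6b stood at 709, 559, 580 and 525 CPM in Ly6Chigh against 324, 250, 302 and 299 CPM in Ly6Clow cells (2.02-fold), and Ms4a6c was 1.58-fold higher. Among 47 myeloid transcription factors 6 were called higher (12.8%) and 2 lower (4.26%), against 3.55% and 4.86% of all genes. The interferon-related genes Irf1, Irf2, Irf7 and Batf2 kept their calls in each of the 8 fits that left out 1 library. Batf2, which is induced by interferon, was at 12.1 to 19.0 CPM against 3.03 to 7.11 CPM (2.72-fold). Of 30 immediate-early and stress genes the phosphatase genes Dusp2 and Dusp5 were called higher (6.67%, against 3.55% of all genes) and 0 lower. Dusp5 was at 67.9 to 168 CPM against 14.7 to 31.2 CPM (4.16-fold).

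Of 27 cytokine receptors 3 were called higher (11.1%) and 2 lower (7.41%), against 3.55% and 4.86% of all genes. Csf3r, the receptor for the granulocyte growth factor G-CSF, was at 47.3 to 89.4 CPM against 37.1 to 49.9 CPM (1.73-fold higher). Of 19 C-type lectin receptors 5 were called higher and 2 lower, with Clec4a3 1.92-fold higher; 2 of these 7 calls held in each of the 8 fits that left out 1 library. Of 12 markers of tumour-associated macrophages Vegfa and Cd274 were called higher and Cd9, a tetraspanin, lower (2.3-fold). Of 17 genes for iron and haem 1 was called higher (5.88%) and 3 lower (17.6%). Of 28 for hypoxia and glycolysis 1 was higher (3.57%) and 4 lower (14.3%). Of 9 plasmacytoid dendritic cell markers 1 was higher and 1 lower (11.1% each). The shares of all genes were 3.55% higher and 4.86% lower.

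Enzymes that make eicosanoids, the lipid mediators derived from arachidonic acid, were lower in Ly6Chigh cells. Of 17 tested members 8 were called lower (47.1%, against 4.86% of all genes) and 0 higher. In each of the 8 fits that left out 1 library 4 of the 8 calls held. Alox15 (chromosome 11, 70344152 to 70352031), the 12/15-lipoxygenase of mouse resident macrophages and eosinophils, stood at 0, 0, 0 and 0.362 CPM in Ly6Chigh against 227, 227, 240 and 308 CPM in Ly6Clow cells, 4 counts against 30455 (log2 fold change -11.14, adjusted p = 2.89e-09). Those 4 counts came from tumour 4, and without that Ly6Chigh library the estimate was -15.17. Alox15 was also counted among the eosinophil markers. Alox5, the 5-lipoxygenase that starts leukotriene synthesis, stood at 40.6, 45.8, 35.5 and 36.1 CPM against 247, 204, 226 and 260 CPM (5.94-fold lower, adjusted p = 1.85e-07). Ltc4s, which makes leukotriene C4, was 5.95-fold lower and the cyclooxygenase gene Ptgs1 3.33-fold lower. The populations were apart for all 4 of these genes. Eosinophils are known for several of these enzymes, and their markers moved in the same direction by more, as given above; their part in this list was not tested.

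More lysosomal and fatty acid genes were called lower than higher in Ly6Chigh cells. Of 33 lysosomal genes 11 were called lower in Ly6Chigh cells (33.3%) and 1 higher (3.03%), against 4.86% and 3.55% of all genes. The 28 genes for fatty acid uptake, storage and oxidation had 9 called lower (32.1%) and 0 higher. In these lists 5 of 12 and 3 of 9 calls held in each of the 8 fits that left out 1 library. The protease gene Ctsd stood at 645, 741, 819 and 837 CPM in Ly6Chigh against 1424, 1419, 1353 and 1586 CPM in Ly6Clow cells (1.9-fold lower, adjusted p = 0.00011), with 31.3% of its windows shared with the gene model Gm49369. Lipa, the lysosomal lipase that frees cholesterol from lipoproteins, was 2.05-fold lower, whereas Npc2, which carries that cholesterol out of the lysosome, was the member called higher, at 1206 to 1509 CPM against 913 to 972 CPM (1.49-fold). Cpt1a, the gate of fatty acid entry into mitochondria, was 2.00-fold lower. G0s2, an inhibitor of fat breakdown, stood at 5.78, 1.46, 0 and 0.996 CPM against 112, 190, 70.6 and 118 CPM (log2 fold change -5.91, adjusted p = 0.00024), and at -7.23 without the Ly6Chigh library of tumour 1. G0s2 was also counted among the neutrophil markers, with Retnlg.

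Of 16 LXR targets and efflux genes 3 were called lower in Ly6Chigh cells (18.8%) and 0 higher. The 23 genes of cholesterol synthesis and other SREBP2 targets had 4 called higher (17.4%) and 0 lower. Over all genes 4.86% were called lower and 3.55% higher. Pltp, the phospholipid transfer protein, stood at 303, 275, 264 and 306 CPM in Ly6Chigh against 779, 804, 801 and 829 CPM in Ly6Clow cells (2.8-fold lower, adjusted p = 7.22e-08). The direct LXR targets for cholesterol export did not pass: Abca1 lay at 120 to 201 CPM against 172 to 249 CPM (adjusted p = 0.454), and Abcg1 at 120 to 241 CPM against 97.5 to 118 CPM (adjusted p = 0.0691). Of the 4 calls on the SREBP2 list 1 held in each of the 8 fits that left out 1 library.

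Of 26 tested matrix proteins and proteases 3 were called higher (11.5%) and 4 lower (15.4%), against 3.55% and 4.86% of all genes. The 25 integrin and adhesion genes had 2 called higher (8.0%) and 4 lower (16.0%). Fn1, fibronectin, stood at 6211, 4367, 5654 and 6215 CPM in Ly6Chigh against 12436, 14722, 13537 and 12979 CPM in Ly6Clow cells (2.39-fold lower, adjusted p = 0.000422), and Timp2, a protease inhibitor, was lower by a log2 fold change of -1.90, or -2.56 without the Ly6Chigh library of tumour 2. Tgfbi, an adhesion protein, was 1.43-fold and Vcan 2.17-fold higher. Clotting factor V, F5, stood at 0.545, 0.928, 1.66 and 11.5 CPM against 77.4, 87.1, 111 and 149 CPM (log2 fold change -4.81, or -6.57 without the Ly6Chigh library of tumour 4). Of 19 clotting genes 5 were called lower (26.3%) and 0 higher. Itgb2, the beta chain that pairs with CD11b, was 1.69-fold lower. Of 21 genes of arginine metabolism and alternative activation 3 were called higher (14.3%) and 4 lower (19.0%). Ass1, which rebuilds arginine from citrulline, was at 97.3 to 132 CPM against 27.9 to 39.7 CPM (3.45-fold higher). Other genes share 32.6% of its windows. Arg1 overlapped, at 2365 to 8257 CPM against 6014 to 9232 CPM (adjusted p = 0.2). Of 20 checkpoint genes 3 were called higher and 2 lower; Cd274, which encodes PD-L1, stood at 148, 75.2, 109 and 76.3 CPM against 40.2, 31.8, 40.7 and 43.2 CPM (2.62-fold higher, adjusted p = 0.00399).

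Proliferation genes were lower in Ly6Chigh cells. All 30 cell cycle and replication genes had a log2 fold change below 0 (median -1.55). The populations did not overlap for 22 of the 30, whereas 15.8% of all genes lay lower without overlap. Of the 30 genes 10 were called lower (33.3%, against 4.86% of all genes) and 0 higher. Top2a (chromosome 11, 98992943 to 99024189), the topoisomerase that untangles chromosomes, stood at 20.9, 12.2, 9.97 and 14.6 CPM in Ly6Chigh against 58.0, 33.6, 35.1 and 44.2 CPM in Ly6Clow cells (2.96-fold lower, adjusted p = 0.0101). Birc5, survivin, stood at 3.16, 4.11, 5.38 and 4.89 CPM against 24.8, 29.6, 19.2 and 22.2 CPM (5.45-fold lower), and the helicase genes Mcm3 and Mcm6 were 2.39- and 2.45-fold lower. Mki67 varied within Ly6Chigh cells, at 0.981, 23.6, 4.89 and 28.9 CPM against 26.4 to 42.4 CPM, and did not pass (adjusted p = 0.417). Of the 10 calls 5 held in each of the 8 fits that left out 1 library, Top2a, Birc5, Mcm3, Mcm6 and Tk1.

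Of 33 ribosomal protein genes 12 were called lower and 0 higher (median log2 fold change -0.31, or -0.18 with median-ratio factors), and 6 of these calls held in each of the 8 fits that left out 1 library. Of 32 nuclear genes of oxidative phosphorylation 1 was called higher (3.12%) and 2 lower (6.25%), near the 3.55% and 4.86% of all genes. Of 7 tested genes encoded in the mitochondrion 5 were called higher and 0 lower, with mt-Nd1 1.85-fold higher; 1 of these calls held in each of the 8 fits that left out 1 library and 2 with the tumour as a block. The share of counts on mitochondrial genes was 2.40% to 4.62% in Ly6Chigh and 2.02% to 2.57% in Ly6Clow cells, and its part in these calls was not tested.

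**Figure D4:**
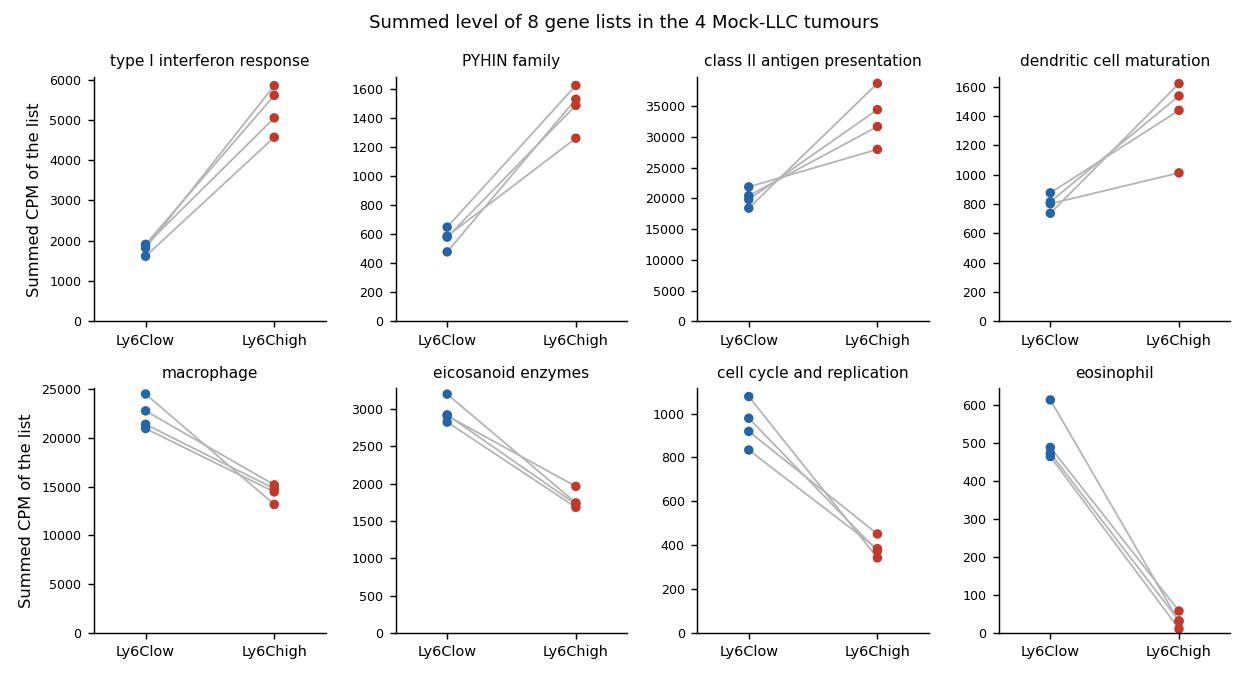
Summed CPM of 8 gene lists in Ly6Clow (blue) and Ly6Chigh (red) cells, with a line joining the libraries of 1 tumour; each panel starts at 0. All 4 tumours rise in the upper row and fall in the lower row, from 464 to 613 CPM down to 10.4 to 57.4 CPM for the eosinophil list.

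Other genes with the widest differences had roles of several kinds. Dusp2, a nuclear phosphatase that switches off MAP kinases, stood at 108, 40.6, 177 and 161 CPM in Ly6Chigh against 25.4, 5.26, 19.7 and 3.41 CPM in Ly6Clow cells (9.08-fold higher, adjusted p = 0.0132). The cyclic AMP phosphodiesterase gene Pde7b stood at 29.0, 51.2, 30.1 and 35.9 CPM against 4.70, 2.15, 6.01 and 4.32 CPM (8.52-fold). Nrg1, the growth factor neuregulin, stood at 10.8, 39.4, 10.7 and 11.3 CPM against 2.22, 3.19, 4.03 and 1.69 CPM, with a log2 fold change of 2.69, or 2.02 without the Ly6Chigh library of tumour 2. Col1a1, a collagen chain of fibroblasts, was 7.56-fold higher at 8.22 to 25.5 CPM against 1.19 to 4.46 CPM, but not without the Ly6Clow library of tumour 1, 3 or 4 (adjusted p up to 0.074). The gene model RP24-286P15.1, which the annotation used here does not place, was 14.2-fold higher. On the other side Car4, a carbonic anhydrase, had no count in Ly6Chigh cells and 13.2 to 32.9 CPM in Ly6Clow cells, at least 241-fold lower. Rflnb, a regulator of the actin-binding filamins, fell from 22.0 to 77.0 CPM to 0 to 2.94 CPM (log2 fold change -5.79, or -7.64 without the Ly6Chigh library of tumour 1). Anln, which encodes the cell division protein anillin, fell from 12.5 to 23.9 CPM to 0 to 2.17 CPM (log2 fold change -4.98, or -11.39 without the Ly6Chigh library of tumour 4).

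The same contrast in tumours of SULT2B1b-LLC cells used other libraries, 4 Ly6Chigh and 3 Ly6Clow, in the same fit. It called 152 genes higher (1.10%) and 213 lower (1.54%) in Ly6Chigh cells. Of the Mock-LLC genes called higher 456 of 490 (93.1%) had the same sign there, and of those called lower 616 of 670 (91.9%), whereas 67.7% and 68.5% of all genes with each sign in Mock-LLC did. In both tumour types 111 genes were called higher, 22.7% of the Mock-LLC calls and 73.0% of the SULT2B1b-LLC calls, and 140 were called lower, 20.9% and 65.7%. None was called in opposite directions. The SULT2B1b-LLC Ly6Chigh library of tumour 1 stood apart, with 2617878 counts, 24540 genes detected and 9.83% of counts on unnamed gene models, against 7627616 to 9865185 counts, 14002 to 14888 genes and 1.27% to 1.4% in the other 3. Without it, an alternative chosen after seeing the data, 205 genes were called higher and 216 lower, 151 and 156 of them also in Mock-LLC tumours, and Spp1, osteopontin, was called in opposite directions (log2 fold change -0.63 in Mock-LLC and 0.93 in SULT2B1b-LLC tumours). Plac8, Ifi205 and C1qa were among the shared calls, with log2 fold changes of 3.36 and 3.72, 2.33 and 2.06, and -1.71 and -1.20 in Mock-LLC and SULT2B1b-LLC tumours.

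**Figure D5:**
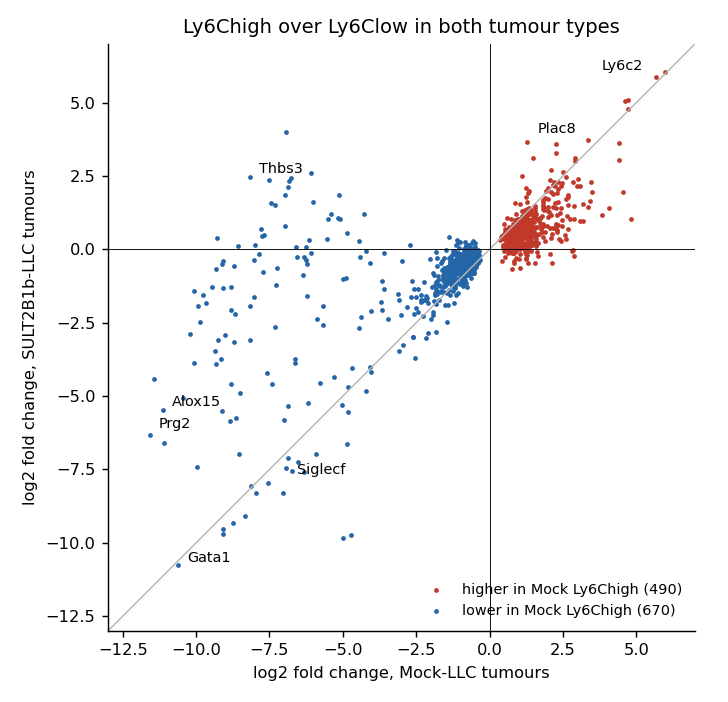
Fitted log2 fold change, Ly6Chigh over Ly6Clow cells, of the 1160 genes called in Mock-LLC tumours (x axis) and of the same genes in SULT2B1b-LLC tumours (y axis), with the line of equal values. Genes called higher (red) and lower (blue) mostly keep their sign; Alox15 and Thbs3 lie off the line.

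Gene lists differed in how closely the tumour types matched. The median log2 fold change of the type I interferon list was 1.43 in Mock-LLC and 1.00 in SULT2B1b-LLC tumours, with 27 and 16 of 27 genes called higher. The interferon-gamma list had medians of 1.44 and 0.64 with 23 and 4 of 24 called higher, and the class II list 0.71 and 0.02 with 7 and 0 of 12. The classical monocyte list had 0.86 and 0.91 and the cell cycle list -1.55 and -1.23, and 7 of 9 eosinophil markers were called lower in each. Without the library that stood apart, 17 genes of the type I interferon list, 5 of the interferon-gamma list and 1 of the class II list were called higher in SULT2B1b-LLC tumours. These differences between lists were not tested. Of single genes the interaction of population and tumour type passed for 2. Alox15 had a log2 fold change of -11.14 in Mock-LLC and -5.47 in SULT2B1b-LLC tumours, a difference of -5.66 (adjusted p = 0.00362). Thbs3, a thrombospondin, had no count in Mock-LLC Ly6Chigh cells and 1.52 to 3.13 CPM in Ly6Clow cells, at least 25-fold lower. In SULT2B1b-LLC tumours its log2 fold change was 2.47 and did not pass (adjusted p = 0.122, and 0.0402 for the interaction). Both interactions passed without the library that stood apart (adjusted p = 0.00999 and 0.0418), and that of Spp1 passed as well (adjusted p = 0.0418).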

How the data were processed

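Total RNA from the sorted cells was amplified with SMART-Seq v4, a method that does not mark strand, and sequenced as single reads of 75 nt, per the labels' protocols. STAR 2.5.3a, featureCounts, limma and the builds mm10 and GRCm38 are named in the submitters' processing notes. The deposited values are raw counts per gene symbol for 15 libraries and 50508 symbols, of which 15730 had no count. Depth was 7763032 to 39284008 counts in the 8 Mock-LLC libraries. CPM values, counts scaled to the effective size of each library by TMM factors, were computed here from the deposited counts.

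Genes were kept with edgeR's filterByExpr, and 13800 were tested in R 4.3.3 with edgeR 4.0.16 (quasi-likelihood test, 4 groups in 1 fit of all libraries, Benjamini-Hochberg adjustment over all genes tested, threshold 0.05). Standard errors were derived from that fit and fold changes were read from it. The floor is 3 counts, and it and all intervals cover counting error only. The labels give same-numbered libraries the same tumour; the deviations of the libraries of 1 tumour from their group means correlated at 0.0279, 0.0936, 0.0435 and 0.0339. A fit that blocked on the tumour, and fits with other scalings, filters, tools (DESeq2 1.42.0, limma 3.58.1), subsets and single libraries left out, were alternatives.

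The members and the 52 gene lists were chosen with earlier results of these data known. Genes named were the 12 with the largest change in each direction among called genes with an average log2 CPM of at least 3, up to 2 called members of each list in each direction, and the genes of the gate. Not every gene that rule gives is described, and other members of the lists that are named, as well as Thbs3 and Spp1, were picked after their values were seen. Shared 75-base windows, gene positions and promoters were read from GENCODE M21 (GRCm38) and RefSeq (GRCm38.p6), and 94.3% of the symbols were found in GENCODE. Windows were compared on the same strand only. As the libraries do not mark strand, overlap with genes on the opposite strand is not counted in these shares. Results of some genes are not reported here.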

Additional observations from a re-analysis of the deposited data

Results flagged for a closer look

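Libraries that stood apart from the others of their population were looked for on log2(CPM + 1) in 356 groups of 4 libraries over 182 genes. Chance alone sets about 1 in 20 groups apart, 17.8 here, and 17 were found.

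In Ly6Chigh cells a single library stood higher than its neighbours for Nrg1 (39.4 CPM in tumour 2, others 10.7 to 11.3), Treml4 (77.2 CPM in tumour 1, others 26.3 to 30.5) and Itgb3 (1.66 CPM in tumour 3, others 0 to 0.181). Alox15, Siglecf and Anln were at 0.362, 1.90 and 2.17 CPM in tumour 4 and at 0 in the other Ly6Chigh libraries. A single library stood lower for Plac8 (638 CPM in tumour 3, others 767 to 792), Ly6a (253 CPM in tumour 3, others 388 to 413) and Stat2 (161 CPM in tumour 2, others 253 to 264).

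In Ly6Clow cells the library apart was higher for RP24-286P15.1 (3.67 CPM in tumour 3, others 1.53 to 1.78), Cdh1 (143 CPM in tumour 2, others 86.4 to 93.5), Gata1 (19.4 CPM in tumour 4, others 7.44 to 8.36), Zbtb46 (12.9 CPM in tumour 3, others 9.14 to 9.53) and Thbs3 (3.13 CPM in tumour 4, others 1.52 to 1.63). It was lower for Batf2 (3.03 CPM in tumour 2, others 6.54 to 7.11), C1qb (3318 CPM in tumour 3, others 3897 to 4015) and Pros1 (57.8 CPM in tumour 3, others 78.7 to 80.9).

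The log2 fold change between the populations differed between Mock-LLC and SULT2B1b-LLC tumours by -5.66 for Alox15 and by -10.64 for Thbs3, the genes for which the interaction passed. Both had 0 counts in 3 or more Mock-LLC Ly6Chigh libraries, so neither size is a measured fold.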

How the results depend on the processing

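Of 1160 genes called, 490 higher and 670 lower, 867 were also called with the tumour as a replicate block, which called 1028 (438 higher and 590 lower). With the 8 Mock-LLC libraries alone the fit called 1023, 443 of them lower, and with the block as well 424, 279 higher and 145 lower; of 161 called genes looked at singly 57 lost their call there, among them Batf2, Gata1, Il5ra, Ace and Gas6 (adjusted p = 0.147, 0.0848, 0.06, 0.0547 and 0.0603). Without a filter on low counts 605 were called, 271 of them lower, and at an adjusted p of 0.01 the count was 452, 223 higher and 229 lower. DESeq2 called 1874, 1032 of them higher, and limma-voom 2433, 786 higher and 1647 lower. Median-ratio factors left 431 lower. Leaving out 1 Mock-LLC library gave 584 to 1134 calls, 328 to 521 higher and 256 to 649 lower. The cause of these shifts was not tested. Without 1 SULT2B1b-LLC Ly6Chigh library, that of tumour 1, the count was 1433, 766 of them lower. A limma-voom fit with 1 weight per population, chosen after seeing the data, called 1306, of which 982 were among the 1160. Of 164 called genes looked at singly 19 lost their call in that fit. Among them were G0s2, Rflnb, Top2a and C4b (adjusted p = 0.0574, 0.103, 0.0671 and 0.111).

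No called gene that the text names changed direction under any alternative tried. Of genes that did not pass, Flt3 (log2 fold change 0.71) was at -0.30 with the tumour as a block, -0.24 with the block in the Mock-LLC libraries alone, -0.44 with limma-voom with or without 1 weight per population, and -0.06 to 1.16 without 1 library. Xcr1 (1.19) was at -0.10 with limma-voom and -0.09 with those weights, Cd68 (-0.11) at 0.02 with median-ratio factors and DESeq2 and -0.20 to 0.02 without 1 library, and Cx3cr1 (0.04) at -0.06 with quality weights. Of 125 called genes that the naming rule gives, 87 held in each of the 8 fits without 1 library and 113 with the block. Of 52 list medians 47 kept their sign under 3 other scalings. A level under 0.398 CPM, the highest floor among Ly6Chigh libraries, is below what 3 counts show there.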
